A study of Arabidopsis thaliana with 72 samples.

Results

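The response of Arabidopsis seedlings to 3 h of auxin was measured by setting the 2 Col-0 arrays of seedlings given 1 µM IAA (indole-3-acetic acid, the main natural auxin) against the 2 arrays of mock-treated seedlings of the same time. These 4 arrays were chosen by their titles, out of 72 in the series. They belong to a set of 16 arrays, labelled A3, that holds 8 groups of 2: IAA, the other 6 hormones and mock. The other hormones were 1 µM zeatin (a cytokinin), 1 µM GA3 (a gibberellin), 10 µM ABA (abscisic acid), 10 µM MJ (methyl jasmonate), 10 µM ACC (the precursor of ethylene) and 10 nM BL (brassinolide, a brassinosteroid). All 16 were whole wild-type Col-0 seedlings, 7 days old and kept at 22 °C, taken 3 h after treatment. The other arrays of the series include lines labelled ga1 and det2, which are not wild type. The IAA and mock arrays at 1 h, 2 of each from the set labelled A2, were used for the comparison with the earlier time.

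Auxin is perceived when it joins a TIR1/AFB receptor to an Aux/IAA protein, a repressor that is then degraded. This frees the auxin response factors, which switch on genes such as those of the Aux/IAA, GH3, SAUR and LBD families. Aux/IAA and GH3 proteins feed back on the pathway, Aux/IAA proteins as new repressors and GH3 enzymes by joining the hormone to amino acids. In seedlings the hormone is known for driving cell elongation through wall loosening and for starting lateral roots.

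Each array gave 1 signal intensity per probe set, and 15962 of 22746 probe sets were bright enough to be tested. Signals are in arbitrary units after scaling of all arrays to 1 trimmed mean. The 2 arrays of a group correlated at 0.953 to 0.961 over the log2 signals in the 8 groups. An IAA and a mock array of the same replicate number correlated at 0.949 and 0.951, against 0.93 and 0.938 for different numbers. The labels do not state that replicates were grown apart, so p-values reflect array-to-array spread, which may be only technical, and 2 arrays a group limit the precision of every value. Of 31 tested photosynthesis genes 0 were called by limma, with 0 at an unadjusted p under 0.05, and their log2 changes lay between -0.24 and 0.13. Of the 3 root hair genes tested, 0 were called by limma and 1 had an unadjusted p under 0.05. That was EXPA7, with 1975 and 922.7 units after IAA, against 757.5 and 666.6 in mock seedlings (adjusted p = 0.4975, limma, and 0.04543 with replicate number as a block), and its part in the other results was not tested. No gene of the endodermis list was matched, and 2 of 6 seed and pollen genes (OLEO3 and AGL65) were bright enough to be tested. In such whole-seedling samples, fewer cells of a type and less RNA per cell cannot be told apart.

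After 3 h of IAA, 154 probe sets rose and 130 fell relative to mock (limma, Benjamini-Hochberg adjusted p under 0.05), which is 0.965% and 0.814% of those tested. The rises spanned log2 changes of 0.66 to 5.59 with a median of 1.54, and 124 exceeded 2-fold, 50 exceeded 4-fold and 9 exceeded 8-fold. The falls spanned -2.69 to -0.55 with a median of -1.17, and 81 exceeded 2-fold, 13 exceeded 4-fold and 0 exceeded 8-fold. All tested probe sets together had a median log2 change of 0.00, and 517 exceeded 2-fold in either direction. These fold changes are on the log2(signal + 55) scale, which understates changes of dim probe sets. In mock seedlings the probe sets that rose had a median signal of 780.7, against 2212 for those that fell and 869.1 for all tested. With replicate number as a block, 311 rose and 343 fell (1.95% and 2.15%), and these include all of the 154 and 130. The block was 1 term over all arrays of the set, although replicate differences were shared less between 2 subsets of its groups. When arrays were not rescaled, 62 rose and 24 fell. Leaving out 1 array lowered both counts: the rises numbered 55 without mock replicate 1, 44 without mock replicate 2, 36 without IAA replicate 1 and 93 without IAA replicate 2, and the falls 21, 27, 31 and 62 in the same order.

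**Figure D1:**
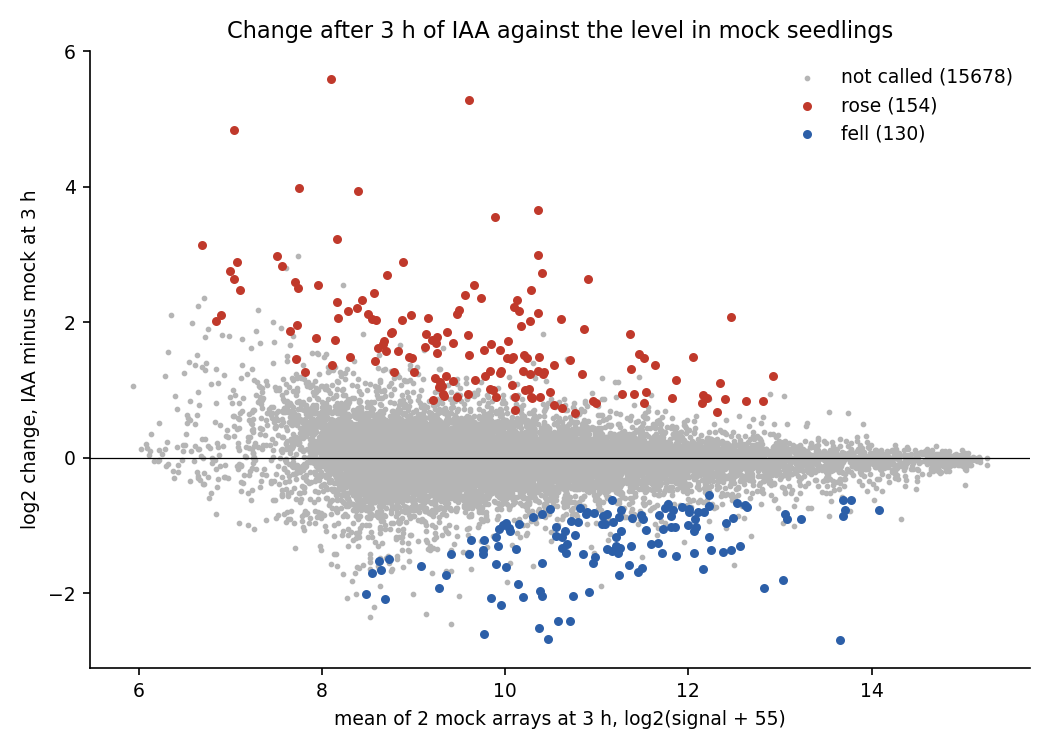
The horizontal axis gives the mean level of each tested probe set on the 2 mock arrays, as log2(signal + 55), and the vertical axis its log2 change, IAA minus mock at 3 h. Red points rose (154), blue points fell (130) and grey points were not called; the red points reach 5.59 and the blue points -2.69.

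Named genes are those whose probe set the array annotation pairs with a single gene. Of the rises, 70 probe sets name 1 gene (20 of them by a symbol, 50 by a locus identifier only), 1 names several and 83 are unnamed here, among them the one with the change of 5.59. Of the falls, 57 name 1 gene (9 by a symbol), 2 name several and 71 are unnamed, and the change of -2.69 belongs to one that names several. Among 210 tested genes in the lists of pathways and families drawn up for these samples, 14 rose and 4 fell. Over all tested probe sets 0.965% rose and 0.814% fell. The lists were chosen with earlier results of these data known, so their counts are a description. Of the 20 rises with symbols, 7 were in the GH3, Aux/IAA and transcription factor lists and 4 were expansin or xyloglucan enzyme genes.

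The GH3 genes, which encode acyl amido synthetases that conjugate auxin to amino acids, gave 3 of the 5 largest named rises. GH3.3 had 32690 and 27690 units after IAA (replicates 1 and 2), against 857.8 and 611.4 in mock seedlings. The IAA arrays stood far above the mock arrays and above each of the other 12 hormone arrays, of which the highest were the ABA arrays at 4124 and 5379. The log2 change was 5.27 ± 0.27 (SE), or 38.65-fold, with an adjusted p of 5.256e-07 by limma. WES1 (also GH3.5) had 18330 and 14720 units after IAA, against 1313 and 1200 in mock seedlings. Its log2 change was 3.65 ± 0.23 (adjusted p = 1.941e-06, limma), and here too the ABA arrays, at 3437 and 4517, were the highest of the other hormones. GH3.1 had 3168 and 2180 units after IAA, against 157.1 and 338 in mock seedlings, a log2 change of 3.22 ± 0.41 (adjusted p = 0.001311, limma). The groups did not overlap for any of these 3, which the choice of named rises required. The calls of these 3 held under every one of 17 other settings, each left-out array included.

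Of 4 GH3 genes tested, 3 rose and the median log2 change was 3.43. GH3.17, whose enzyme also conjugates auxin, was the exception. It had 1142 and 1205 units after IAA, against 1322 and 1416 in mock seedlings, and its log2 change of -0.21 ± 0.20 did not pass (adjusted p = 0.9369, limma). IAGLU, an auxin glucosyltransferase chosen once its values were known, rose by 1.24 ± 0.26 on the log2 scale (adjusted p = 0.02547, limma). It had 2386 and 3409 units after IAA, against 1248 and 1116 in mock seedlings. Without any 1 of the 4 IAA and mock arrays its adjusted p was 0.0601 to 0.222, so that call rests on all 4. UGT74D1, another glucosyltransferase that can act on auxin, had 1870 and 1899 units after IAA, against 2137 and 3093 in mock seedlings, and YUC2, of the main auxin synthesis route, had 353 and 490.1 against 345.1 and 640.9. Neither was called (adjusted p = 0.7786 and 0.9911, limma).

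Of the 4 Aux/IAA repressor genes tested, 2 rose, and both IAA arrays lay above both mock arrays for all 4. Over all tested probe sets 18.8% showed such a separation upward and 18.1% downward. IAA29 had 5098 and 5062 units after IAA, against 330.2 and 236.6 in mock seedlings. The log2 change was 3.94 ± 0.30 (adjusted p = 1.265e-05, limma). IAA30, which lacks the sequence that makes other Aux/IAA proteins short-lived, had 1300 and 1306 units after IAA, against 87.23 and 200.1 in mock seedlings. Its log2 change was 2.83 ± 0.38 (adjusted p = 0.00155, limma). For both genes the IAA arrays were nearly equal and exceeded all 14 other arrays of the time, and both calls held under all 17 other settings. IAA34 and IAA18 had log2 changes of 0.81 and 0.43 and were not called (adjusted p = 0.698 and 0.6368, limma). The list of 4 had a median of 1.82. Of the receptor and transport lists, 1 gene each was tested: SKP2A (0.33) and WAG2 (0.62), neither called, at adjusted p = 0.9324 and 0.8771 by limma. The lists were matched by symbol and synonym, and no gene was matched to those of the auxin response factors or SAUR proteins, so members listed by locus identifier alone are not covered.

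Genes for LBD and homeodomain leucine zipper transcription factors followed. LBD29, which acts below the auxin response factors in lateral root formation, had 4102 and 2723 units after IAA, against 247.5 and 98.7 in mock seedlings. The log2 change was 3.98 ± 0.36 (adjusted p = 7.284e-05, limma), and the highest of the other hormone arrays reached 283. HAT2, a homeodomain leucine zipper gene known as auxin-inducible, had 10300 and 7701 units after IAA, against 1242 and 1360 in mock seedlings. Its log2 change of 2.73 ± 0.18 passed at an adjusted p of 3.549e-06 (limma), and the highest of the other hormone arrays reached 2355. Both calls held under all 17 other settings. LBD16, a partner of LBD29 in starting lateral roots, had 959.8 and 708.8 units after IAA, against 310.1 and 381.5 in mock seedlings. Its log2 change of 1.14 ± 0.31 did not pass (adjusted p = 0.09242, limma) but did with the replicate block (adjusted p = 0.04923). PUCHI, a further lateral root gene, had 524.3 and 577.1 units against 269.5 and 222.3 and was not called (log2 change 1.01, adjusted p = 0.3725, limma). PHV, a homeodomain leucine zipper gene of leaf polarity, changed by -0.23 and was not called either. In all, 2 of 4 genes in the transcription factor list and 1 of 3 in the lateral root list rose, with medians of 1.93 and 1.14.

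**Figure D2:**
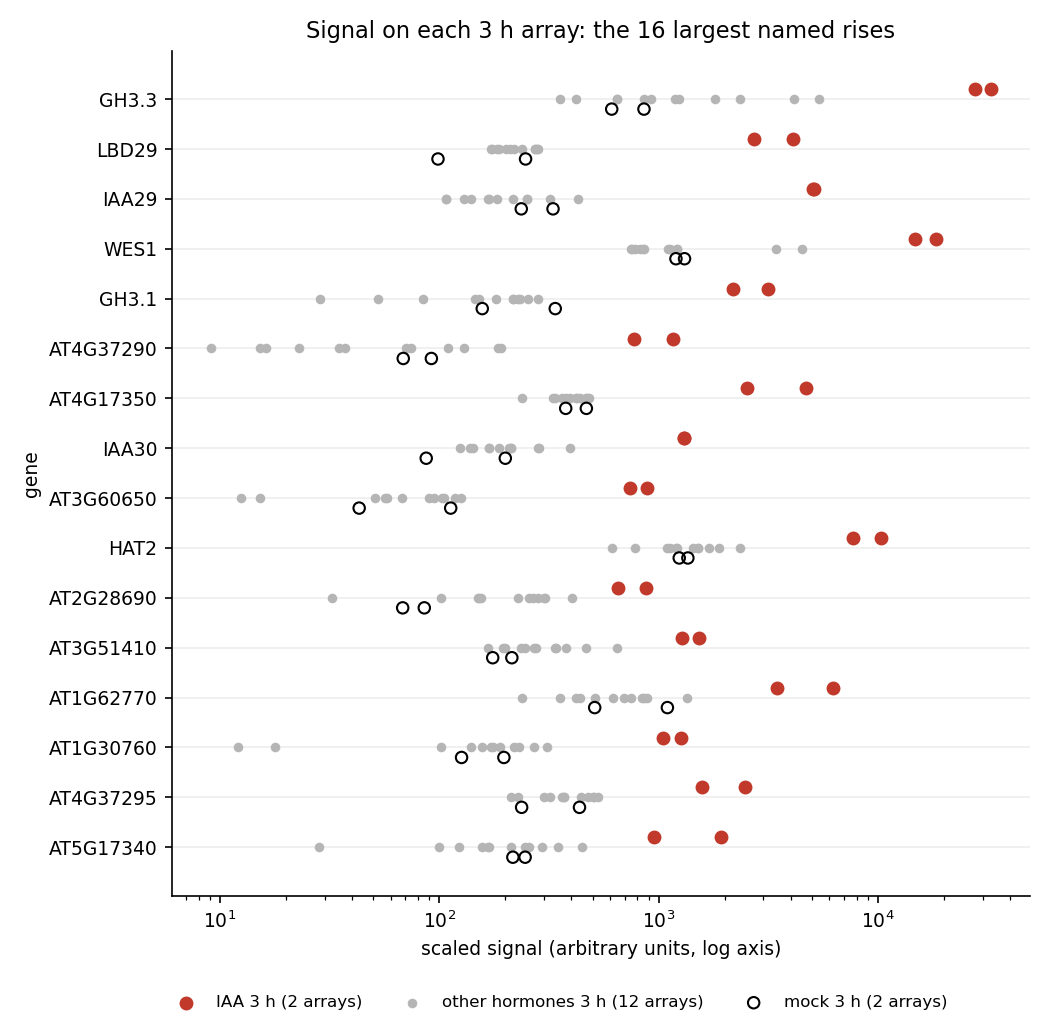
Each line is 1 of the 16 largest named rises, largest at the top, and each point is 1 array at 3 h, placed by its scaled signal on a log axis. Filled red points are the 2 IAA arrays, small grey points the 12 arrays of the other hormones and open circles the 2 mock arrays. In all 16 genes both red points lie right of all 14 others, which for the 2 mock arrays the choice of genes required.

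The other 9 of the 16 largest named rises carry only a locus identifier, and the tables used here say no more of what they encode. AT4G17350 had 4719 and 2538 units after IAA, against 468.5 and 377.2 in mock seedlings, a log2 change of 2.89 ± 0.27 (adjusted p = 8.337e-05, limma). AT3G51410 had 1535 and 1276 units after IAA, against 175.3 and 214.3 in mock seedlings, a log2 change of 2.55 ± 0.30 (adjusted p = 0.0006402, limma). Both calls held under all 17 other settings, and AT4G17350 stayed between 239.5 and 483.4 on the 12 arrays of the other hormones. The remaining 7 lost their call when single arrays were left out. AT4G37290 (2.89) and AT3G60650 (2.76) lost it without any 1 of the 4 arrays, at adjusted p of 0.129 to 0.3 and 0.0667 to 0.172. AT2G28690 (2.63) and AT5G17340 (2.30) lost it without mock replicate 1, mock replicate 2 or IAA replicate 1, at 0.0549 to 0.0921 and 0.157 to 0.323. AT1G62770 (2.54) and AT1G30760 (2.50) lost it without mock replicate 2 or IAA replicate 1, at 0.0851 to 0.0878 and 0.0621 to 0.0658. AT4G37295 (2.43) lost it without mock replicate 1 or IAA replicate 1, at 0.0767 to 0.0842. AT5G17340 had 1916 and 956.1 units after IAA, against 246.4 and 216.6 in mock seedlings. IAA replicate 1 was above replicate 2 in 14 of the 16 genes.

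Among the tested genes of the cell wall lists, 1 expansin and 3 xyloglucan enzymes rose, 1 xyloglucan enzyme fell and the others were not called. EXPA4, an expansin of the kind that loosens walls in growing cells, had 7544 and 5570 units after IAA, against 2441 and 2751 in mock seedlings. The IAA arrays exceeded all 14 other arrays, and the log2 change was 1.30 ± 0.17 (adjusted p = 0.00155, limma), a call that held under all 17 other settings. It was the only 1 of 15 expansin genes tested that passed by limma, while 3 in each direction had an unadjusted p under 0.05, and the median over the 15 was 0.14. EXPA8 had 1602 and 3181 units after IAA, against 879.7 and 1196 in mock seedlings, and was not called (adjusted p = 0.405, limma), nor with the replicate block (0.0876), but passed with the block when only the mock, IAA, zeatin and GA3 arrays were fitted (0.0143). EXPB3 had 1609 and 1667 units against 2377 and 2484, with a log2 change of -0.55 that was not called but passed with the replicate block (adjusted p = 0.05262 without it and 0.01965 with it). EXPB1, at 294.4 and 153.3 units against 570.8 and 537, was likewise not called but passed with the block (adjusted p = 0.1581 and 0.009355).

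Xyloglucan endotransglucosylases (XTH) cut and rejoin the xyloglucan that ties cellulose fibres, and of 9 tested 3 rose and 1 fell, with a median of -0.34. XTH19 had 9984 and 8620 units after IAA, against 2846 and 2312 in mock seedlings, a log2 change of 1.83 ± 0.21 (adjusted p = 0.0005359, limma) that held under all 17 other settings. XTH18 had 3189 and 2375 units after IAA, against 916.3 and 1347 in mock seedlings, and XTH33 had 1025 and 997.8 against 524.7 and 549.5. For all 3 the BL arrays were the highest of the other hormones: XTH19 reached 10890 and 15010 units there, both above the IAA arrays, and XTH33 reached 1733 and 1899. XTH18 rose by 1.27 ± 0.22 (adjusted p = 0.01102, limma) and lost its call without mock replicate 1 or IAA replicate 1 (0.125 to 0.128). XTH33 rose by 0.85 ± 0.19 (adjusted p = 0.04161, limma) and lost it without any 1 of the 4 arrays or the first ACC array (0.0516 to 0.239). XTH32 had 1986 and 2003 units after IAA, against 3958 and 2920 in mock seedlings. It fell by 0.75 on the log2 scale (adjusted p = 0.02372, limma), a call lost without mock replicate 1 or either IAA array (0.123 to 0.267). XTH21 had 20.5 and 14.03 units after IAA, against 444 and 215.5 in mock seedlings. Its log2 change of -2.35 ± 0.57 did not pass (adjusted p = 0.06007, limma) but did with the block (0.02294).

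The matched members of the other wall lists gave no calls. Matching was by symbol and synonym, so wall genes with a locus identifier alone are not covered. Among the calls that name 1 gene, 50 rises and 48 falls carry only a locus identifier. The counts in this paragraph therefore do not describe whole families. Of 11 genes for cellulose synthases and related enzymes 0 were called by limma, 2 were higher after IAA at an unadjusted p under 0.05, and the median was 0.08. CSLC5 came nearest, with 2897 and 2597 units after IAA, against 1865 and 1618 in mock seedlings (log2 change 0.64, adjusted p = 0.08033, limma, and 0.006806 with the block). Of 2 pectin enzyme genes and 1 extensin gene 0 were called by limma, with 1 pectin gene at an unadjusted p under 0.05. The class III peroxidase list was matched by symbol and synonym, so genes with a locus identifier alone are not covered, and of its 5 tested members 0 were called by limma and 1 had an unadjusted p under 0.05. That one, AT5G64120 (PRX71), had 6743 and 4011 units after IAA, against 3044 and 2746 in mock seedlings (log2 change 0.84, adjusted p = 0.08318, limma, and 0.02025 with the block), and it passed without IAA replicate 2 (0.0204). AT5G66390 (PRX72), at 2719 and 2071 units against 1737 and 1388, was not called but passed with the block (adjusted p = 0.5704 and 0.03905). Prx37, at 4658 and 3308 units against 3190 and 2297, was not called in either fit. GH9B13, an endoglucanase family gene chosen once its values were known, rose by 1.01 ± 0.23 (adjusted p = 0.04577, limma). It had 2245 and 1412 units after IAA, against 775 and 948 in mock seedlings, and lost its call without mock replicate 1, mock replicate 2, IAA replicate 1 or the first ACC array (0.0636 to 0.44).

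Of the other hormone lists, matched in the same way, the ethylene and brassinosteroid lists each had 1 called gene and the rest had 0. Over all tested probe sets 0.965% rose and 0.814% fell. In the ethylene list 1 of 3 tested genes rose and the median was 0.99. RTE1, which acts on an ethylene receptor to dampen the ethylene response, had 2794 and 1917 units after IAA, against 1265 and 1024 in mock seedlings. The ACC arrays, at 3213 and 3145, were the only others above the IAA arrays. The log2 change was 0.99 ± 0.22 (adjusted p = 0.03681, limma), and the call was lost without mock replicate 1, mock replicate 2, IAA replicate 1 or the first ACC array (0.0527 to 0.366). ARL, an ARGOS-like gene that promotes organ growth, had 6135 and 6616 units after IAA, against 3404 and 2252 in mock seedlings, and its ACC arrays had 10190 and 8578. Its log2 change of 1.19 ± 0.31 was not called but passed with the block (adjusted p = 0.0799 by limma without it and 0.002356 with it). EIN3, the main ethylene transcription factor, was not called (0.23).

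In the brassinosteroid list 1 of 3 tested genes rose and the median was 0.76. BRH1, a RING-finger gene known for being lowered by brassinosteroid, had 10030 and 9480 units after IAA, against 5041 and 5657 in mock seedlings. The BL arrays were the lowest of the set, at 2749 and 3112, so IAA and BL arrays lay on opposite sides of mock. The log2 change for IAA was 0.86 ± 0.14 (adjusted p = 0.00663, limma), lost without mock replicate 1 or IAA replicate 1 (0.0742 to 0.0856). EXO, a gene of brassinosteroid-promoted growth, had 3044 and 3886 units after IAA, against 2166 and 1856 in mock seedlings, with 8386 and 9121 on the BL arrays. Its log2 change of 0.76 ± 0.21 was not called but passed with the block (adjusted p = 0.1059 by limma without it and 0.03561 with it).

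The gibberellin (6 tested), cytokinin (2), ABA (9) and jasmonate (13) lists had 0 calls by limma, with medians of -0.14, -0.34, 0.23 and -0.01. At an unadjusted p under 0.05 there were 2 gibberellin genes (GID1A and XERICO) and 2 jasmonate list genes (JAL33 and JAL34) lower after IAA, and 1 ABA list gene higher. JAL33, a jacalin-related lectin, had 4716 and 8723 units after IAA, against 10710 and 13020 in mock seedlings, and was not called but passed with the block (adjusted p = 0.2661 by limma without it and 0.005697 with it). The ABA list gene was LTI30, a dehydrin, with 2436 and 2953 units after IAA, against 1497 and 1603 in mock seedlings. It passed with the block (adjusted p = 0.05821 by limma without it and 0.004417 with it), and reached 22940 and 30090 on the ABA arrays. RR16, a cytokinin response regulator, had 472.1 and 623.4 units after IAA, against 661.6 and 403.6 in mock seedlings, and 1709 and 1996 on the zeatin arrays. Its IAA and mock arrays overlapped.

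Of the remaining rises with a symbol or synonym, each chosen once its values were known except AT1G59740, none held when single arrays were left out. AT1G59740 (NPF4.3), of the family of nitrate and peptide transporters, had 2919 and 1880 units after IAA, against 565.3 and 652.8 in mock seedlings. It rose by 1.86 ± 0.34 (adjusted p = 0.01504, limma), and the first ABA array, at 2150, lay between its IAA arrays. RALFL18, of a family of secreted signalling peptides, had 672.4 and 307.5 units after IAA, against 58.55 and 69.94 in mock seedlings. It rose by 2.11 ± 0.45 (adjusted p = 0.02853, limma), while 1 of 7 RALF-like genes tested rose in all. bZIP44, a leucine zipper transcription factor, rose by 1.27 (adjusted p = 0.01489), ATIM, a relative of the animal replication protein Timeless, by 1.05 (adjusted p = 0.01774), GSTU16, a glutathione transferase, by 0.94 (adjusted p = 0.0156), and TBL36, of a family that acetylates wall polymers, by 0.70 (adjusted p = 0.03061), all by limma. AT1G59740, RALFL18, bZIP44 and ATIM lost the call without mock replicate 1, mock replicate 2 or IAA replicate 1, and GSTU16 and TBL36 without any 1 of the 4 arrays. Over these 6 genes the adjusted p without an array then lay between 0.0609 and 0.348.

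The falls were set against all other arrays of the time in the same way. Both IAA arrays lay below all 14 other arrays of the time in 56 of the 130 probe sets that fell, and above them all in 102 of the 154 that rose. Over all tested probe sets 195 lay below and 375 above. The 14 include the 2 mock arrays, from which the IAA arrays were already apart in all of the 130 and 154. Over all tested probe sets 5903 were apart from mock. The calls were made on these same IAA arrays, so the counts are partly fixed and are a description. Among the 14 largest named falls, which carry locus identifiers only, 6 lay below all 14 others.

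AT3G21670 (NPF6.4), of the same transporter family as NPF4.3, had 430.6 and 431.8 units after IAA, against 1793 and 1972 in mock seedlings. Its IAA arrays were nearly equal and were the lowest of the 16, while the ABA arrays (3888 and 4200) and MJ arrays (3905 and 4391) were the highest. The log2 change was -1.99 ± 0.18 (adjusted p = 6.812e-05, limma). AT3G01260 had 208.6 and 262.2 units after IAA, against 1689 and 1296 in mock seedlings, a log2 change of -2.41 ± 0.31 (adjusted p = 0.001172, limma). The ABA arrays, at 354.4 and 207.9, overlapped the IAA arrays. AT5G45650 had 763.2 and 862.3 units after IAA, against 2586 and 2529 in mock seedlings, a log2 change of -1.59 ± 0.17 (adjusted p = 0.0003357, limma). These 3 calls held under all 17 other settings.

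AT5G02230 had 339.5 and 145.3 units after IAA, against 1126 and 1115 in mock seedlings, with 5814 and 5621 on the ABA arrays. Its log2 change of -2.06 ± 0.26 (adjusted p = 0.001172, limma) held without each single array but not with only the IAA and mock arrays in the fit (0.0543). The other 10 of the 14 lost their call when single arrays were left out. AT3G01190 (-2.04), AT4G31330 (-1.93), AT3G20015 (-1.87), AT4G25250 (-1.74), AT4G19380 (-1.70) and AT3G44970 (-1.61) lost it without any 1 of the 4 arrays, at adjusted p of 0.0608 to 0.312. AT1G15640 (-2.09) lost it without either mock array or IAA replicate 1 (0.161 to 0.267), and AT3G62040 (-1.63) without mock replicate 1 or IAA replicate 2 (0.141 to 0.172). AT3G52480 (-2.02) and AT2G12300 (-2.61) lost it without either mock array, IAA replicate 1 or the first ACC array (0.051 to 0.298 and 0.0527 to 0.392). AT2G12300 is listed as a pseudogene by RefSeq, and its probe set is of the kind that can bind related transcripts. It had 25.68 and 199.1 units after IAA, against 1103 and 606.3 in mock seedlings. The zeatin (40.81 and 36.74), GA3 (142.8 and 71.24) and ABA arrays (103.6 and 34.86) lay between its IAA arrays. Those of MJ, ACC and BL lay between 208.7 and 627.8. The mock arrays at 1 h had 18.58 and 30.34 units.

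**Figure D3:**
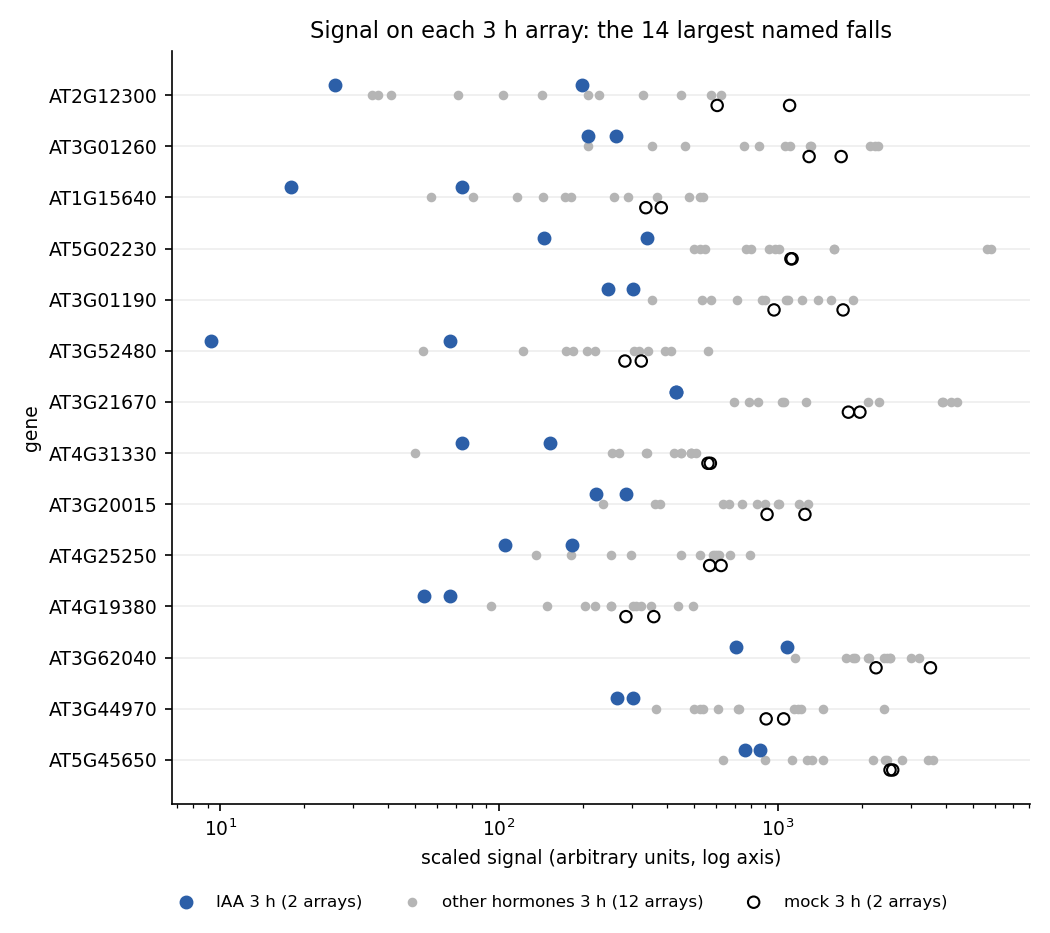
Each line is 1 of the 14 largest named falls, largest at the top, and each point is 1 array at 3 h, placed by its scaled signal on a log axis. Filled blue points are the 2 IAA arrays, small grey points the 12 arrays of the other hormones and open circles the 2 mock arrays. Both blue points lie left of both open circles in every gene, which the choice of genes required. They lie left of all 14 other points in 6.

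The falls with symbols were fewer. SWEET17, a sugar carrier of the vacuole, had 840.7 and 996.4 units after IAA, against 2297 and 2478 in mock seedlings. It fell by 1.33 on the log2 scale (SE 0.23, adjusted p = 0.009311, limma) and was highest on the MJ arrays, at 5385 and 5430. It was the only 1 of 12 genes in its list that passed, and the median was -0.11. UGT74B1, which glucosylates the precursors of glucosinolates, had 1762 and 1397 units after IAA, against 3428 and 3234 in mock seedlings. It fell by 1.06 on the log2 scale (SE 0.21, adjusted p = 0.01837, limma) and was the only 1 of 15 genes in the glucosinolate list that passed. That list had a median of -0.25, and 4 of its genes were lower and 1 higher after IAA at an unadjusted p under 0.05. BCAT4, of the methionine branch of glucosinolate synthesis, had 7818 and 8082 units after IAA, against 13720 and 13830 in mock seedlings, and was not called but passed with the block (adjusted p = 0.06863 by limma without it and 0.01939 with it). SWEET17 lost its call without either mock array or IAA replicate 1 (0.0659 to 0.0963) and UGT74B1 without any 1 of the 4 arrays (0.0601 to 0.158).

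Another 6 falls with symbols were chosen once their values were known. MSRB6 and MSRB5, methionine sulfoxide reductases, fell by 1.43 and 0.84 on the log2 scale (adjusted p = 0.002411 and 0.03621, limma). MSRB6 had 520.9 and 753.5 units after IAA, against 1981 and 1613 in mock seedlings, and MSRB5 had 4695 and 4716 against 7839 and 9107. GSTU26, of the same family as GSTU16, had 820.1 and 795.8 units after IAA, against 2464 and 1879 in mock seedlings, and fell by 1.35 (adjusted p = 0.004784, limma). LSH9 (light-sensitive hypocotyl family) fell by 1.37 (adjusted p = 0.01774) and TBL45, of the same family as TBL36, by 0.86 (adjusted p = 0.0156), both by limma. BUBR1, of the spindle checkpoint, had 106.4 and 83.08 units after IAA, against 345.6 and 393 in mock seedlings, the lowest 2 of the 16 arrays, and also fell (adjusted p = 0.02741, limma). MSRB6 held without each single array but not with only the IAA and mock arrays in the fit (0.0518). GSTU26 lost its call without mock replicate 1 (0.0686), LSH9 without either mock array or IAA replicate 1 (0.102 to 0.156), and MSRB5, BUBR1 and TBL45 without any 1 of the 4 arrays (0.0551 to 0.279).

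The nutrient uptake list held 11 tested genes, of which NPF4.3 rose and NPF6.4 fell, with a median of -0.39. AT1G68570 of that list had 935.6 and 840.5 units after IAA, against 1769 and 1523 in mock seedlings, and was not called but passed with the block (adjusted p = 0.1032 by limma without it and 0.01547 with it). Of 7 phenylpropanoid genes 0 were called by limma and 2 (CHIL and HCT) were lower at an unadjusted p under 0.05, with a median of -0.51. CHIL, a helper of flavonoid synthesis, had 1420 and 1132 units after IAA, against 2489 and 2198 in mock seedlings (adjusted p = 0.0821, limma, and 0.00119 with the block). HCT, of lignin synthesis, had 5942 and 5946 units after IAA, against 8927 and 8035 in mock seedlings (adjusted p = 0.1226, limma, and 0.01581 with the block). SWEET2, of the sugar list, had 997.5 and 827.1 units against 1613 and 1477 (adjusted p = 0.08928 and 0.03354). The touch list (11 tested, median 0.46) had 0 calls by limma and 2 genes higher at an unadjusted p under 0.05. The ribosomal (16), cell cycle (3) and clock (2) lists had 0 calls and 0 at an unadjusted p under 0.05, and the heat shock list (3) had 0 calls and 1 gene higher at that p. No gene of the aquaporin list was matched among the named probe sets.

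**Figure D4:**
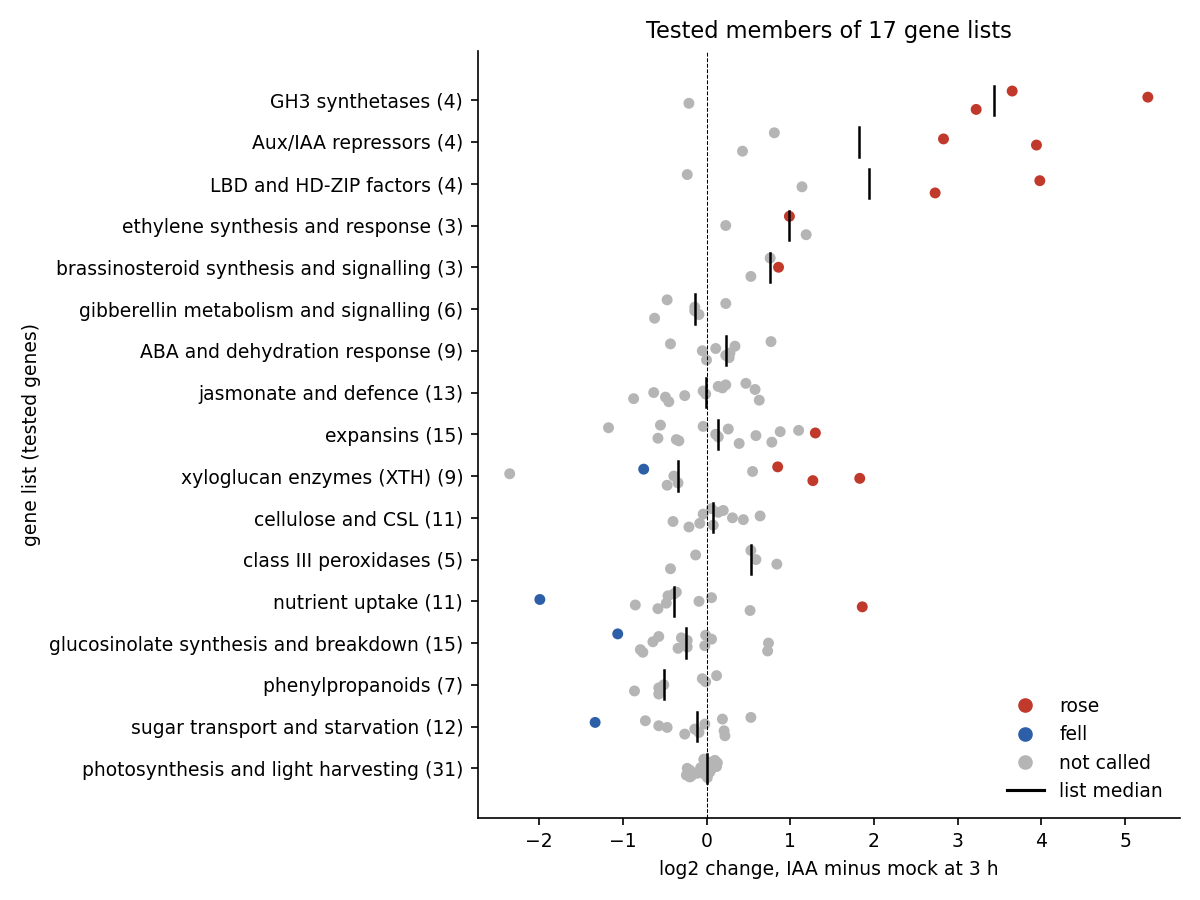
Each point is 1 tested gene of 17 lists, placed by its log2 change, IAA minus mock at 3 h; red points rose, blue points fell, grey points were not called and the black bar is the list's median. The GH3, Aux/IAA and transcription factor lists have medians of 3.43, 1.82 and 1.93, while the 31 photosynthesis genes stay between -0.24 and 0.13.

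Setting the IAA arrays against the mean of the other 6 hormones, with no mock array, gave 365 higher and 382 lower probe sets (2.29% and 2.39%; limma, adjusted p under 0.05). This comparison shares its IAA arrays with the one against mock, so the 2 are not independent. GH3.3 was higher by 4.60 ± 0.21 than the other hormones, IAA29 by 4.38 ± 0.23 and EXPA4 by 1.78 ± 0.13, with adjusted p of 5.281e-08, 1.249e-07 and 4.326e-06 by limma. AT3G21670 (NPF6.4) was lower by 1.91 ± 0.14 (adjusted p = 2.698e-06, limma), while AT2G12300 had a log2 difference of -0.67 that did not pass (adjusted p = 0.6024, limma). For EXPA4 the MJ arrays, at 953 and 1033, were the lowest of the set, and the difference from mock was 1.30. Without IAA replicate 1 this comparison gave 266 calls and without IAA replicate 2 it gave 342, against 747 with both.

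At 1 h of IAA, 71 probe sets rose and 7 fell relative to the 1 h mock (0.445% and 0.0439%, limma, adjusted p under 0.05). The IAA and mock arrays set against each other at 1 h are not those of 3 h. The spread, however, was estimated from the wild-type arrays of both times, on probe sets bright enough at 3 h. The calls at the 2 times are therefore not independent. This fit had 16 residual degrees of freedom, against 8 at 3 h, so the counts at the 2 times come from unlike fits. Of the probe sets that rose, 45 rose at both times, which is 29.2% of the 154 at 3 h and 63.4% of the 71 at 1 h. Of those that fell, 2 fell at both times, 1.54% of the 130 at 3 h and 28.6% of the 7 at 1 h. The 154 rises had a median log2 change of 0.73 at 1 h, against 1.54 at 3 h, and 132 had the same sign. The 130 falls had a median of -0.24 at 1 h, against -1.17 at 3 h, and 111 had the same sign, while 8869 of all 15962 tested did. The rule that called them at 3 h raises their 3 h values, so the smaller 1 h medians are a description.

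The direct test of the difference called 11 probe sets with a higher and 10 with a lower response at 3 h than at 1 h (0.0689% and 0.0626%; limma, adjusted p under 0.05). Of these, 9 had risen and 9 had fallen at 3 h. GH3.3 had responses of 5.27 at 3 h and 5.33 at 1 h, LBD29 of 3.98 and 4.54, HAT2 of 2.73 and 3.21, and IAA29 of 3.94 and 3.36. No difference between the times passed for these 4 (adjusted p = 0.9994 for each, limma), and the differences were -0.06 ± 0.34, -0.56 ± 0.74, -0.49 ± 0.30 and 0.58 ± 0.40. WES1 had 3.65 at 3 h and 2.76 at 1 h, a difference of 0.90 ± 0.28 that did not pass either (adjusted p = 0.4431, limma).

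AT4G17350 was called only at 3 h, and its difference passed. It had 4719 and 2538 units after 3 h of IAA, against 468.5 and 377.2 in its mock seedlings. After 1 h of IAA it had 921.5 and 479.8 units, against 329.4 and 454.9 in mock seedlings, where the groups did not overlap but the nearest arrays were close. The response at 3 h exceeded that at 1 h by 2.18 ± 0.39 (adjusted p = 0.03422, limma). EXPA4 had 3279 and 3351 units after 1 h of IAA, against 3214 and 2606 in mock seedlings, and a difference between the responses of 1.11 ± 0.22 (adjusted p = 0.04789, limma). AT3G21670 (NPF6.4) had 1188 and 1412 units after 1 h of IAA, against 1912 and 1931 in mock seedlings. Both IAA arrays were below mock at 1 h too, and the response at 3 h was lower by 1.44 ± 0.25 (adjusted p = 0.03422, limma). AT5G45650 had 2280 and 1980 units after 1 h of IAA, against 2354 and 2025 in mock seedlings, and its response at 3 h was lower by 1.55 ± 0.23 (adjusted p = 0.0219, limma). The 21 calls fell to 0 to 3 without 1 of the 4 arrays at 1 h or without mock replicate 1, mock replicate 2 or IAA replicate 1 at 3 h, and to 13 without IAA replicate 2 at 3 h. The 0 came without mock replicate 1, mock replicate 2 or IAA replicate 2 at 1 h, so each of the differences named here was lost without any of those arrays.

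**Figure D5:**
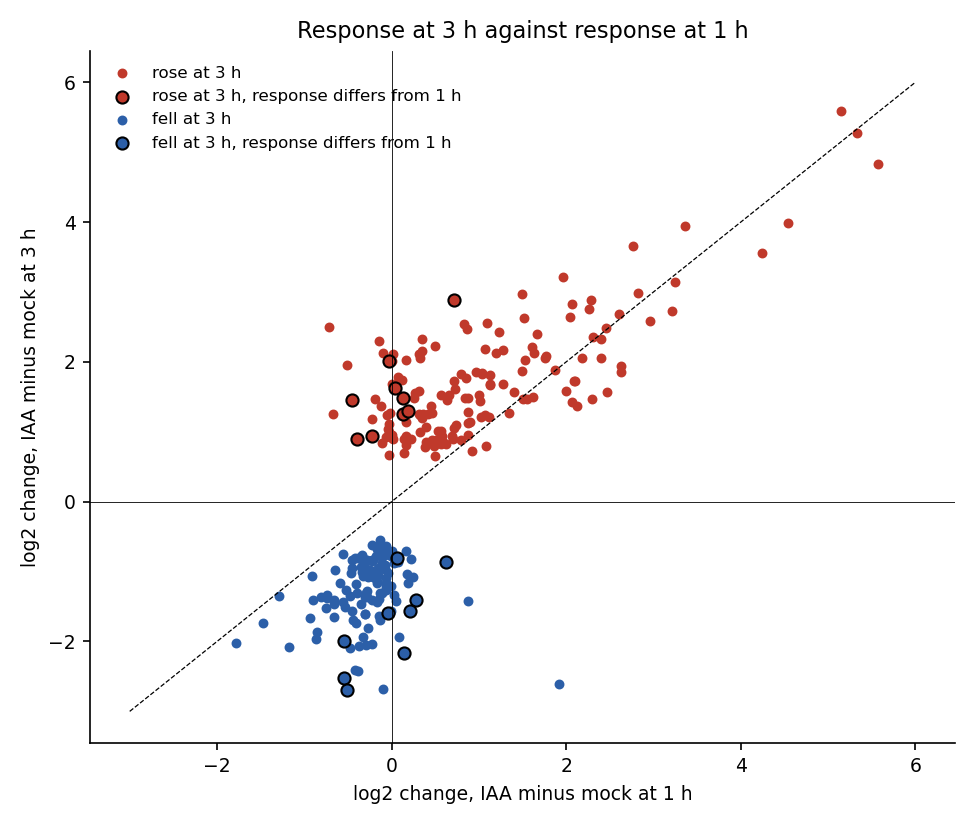
Each point is 1 of the probe sets called at 3 h, red for the 154 that rose and blue for the 130 that fell; the axes give the log2 change, IAA minus mock, at 3 h (vertical) and at 1 h (horizontal), and the dashed line marks equal changes. Outlined points are the 9 red and 9 blue whose response differed between the times; on the 1 h axis the blue points have a median of -0.24 and the red points 0.73.

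Another 26 probe sets rose at 1 h and were not called at 3 h, and 11 of them name 1 gene: AT2G18010, AT3G28420, LBD16, AT4G27280, AT5G41400, AT5G39580, AT5G64780, BZIP61, EXO, AT5G06930 and AT1G32920. Their log2 changes at 3 h lay between 0.54 and 1.91. LBD16 had 1157 and 998.2 units after 1 h of IAA, against 277.7 and 283.5 in mock seedlings, with a log2 change of 1.75 (adjusted p = 0.000959, limma), against 1.14 at 3 h. EXO had 4806 and 4084 units after 1 h of IAA, against 1667 and 1800 in mock seedlings, with 1.33 (adjusted p = 0.01743, limma), against 0.76 at 3 h. For none of the 11 did the difference between the times pass, at adjusted p of 0.7025 or above.

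Just inside the threshold of 0.05 at 3 h lay 3 unnamed probe sets with adjusted p of 0.0486, 0.0492 and 0.0497 and log2 changes of -1.17, 0.88 and 0.73. Just outside it lay an unnamed probe set (1.05, adjusted p = 0.0502, limma), TBL38 (-1.14, adjusted p = 0.05107) and AT5G06270 (-0.90, adjusted p = 0.05111). All of the latter passed with the replicate block (adjusted p = 0.02623, 0.01458 and 0.0113 in the same order, limma).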

How the data were processed

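The deposited values are signal intensities on a linear scale that the authors computed with MAS5, per the submitters' processing notes. Neither scanner files nor detection calls were used. Of 22810 probe sets, 64 controls were left out. The 2% trimmed means of the 16 arrays at 3 h lay between 887 and 1163, so every array was scaled to 1163. ACC replicate 1 (1163) stood apart from the other replicate 1 arrays (1056). The pseudocount of 55 is 10% of the median deposited signal. A probe set was tested where it exceeded its array's 40th percentile on at least 2 of the 16 arrays.

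Group means over the 16 arrays were fitted with limma 3.58.1 (R 4.3.3), which left 8 residual degrees of freedom, and eBayes was run with an intensity trend. Comparisons with 1 h used all 32 Col-0 arrays of both times. p-values were Benjamini-Hochberg adjusted over all 15962 probe sets. The fit was run on simulated data with noise independent between arrays, so that check does not cover the shared deviations given next. IAA and mock arrays of 1 number deviated together from their groups, with correlations of 0.365, 0.314 and 0.369 at 30 min, 1 h and 3 h. By that, the numbers were taken to pair arrays. Blocked values are given for list members whose call against mock at 3 h they change, but not for every gene.

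Probe sets were named by the platform annotation, with symbols updated through Entrez identifiers from the RefSeq table (TAIR10.1). The text names list members and, from the calls with a single gene and no overlap between IAA and mock arrays, the top 16 rises and top 14 falls by size. Of the list matches, 6 pointed to another gene of the same name and were left out after the values were seen. The comparison, lists and named genes were chosen with earlier results of these data known. Alternatives covered the pseudocount, scaling, filter, trend, arrays in the fit, replicate block and each left-out array.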

Additional observations from a re-analysis of the deposited data

Results flagged for a closer look

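For 9 genes the response to IAA at 3 h differed from that at 1 h by the direct test (limma, adjusted p under 0.05 over all 15962 probe sets), given as 3 h minus 1 h on the log2 scale. The difference was 2.77 for AT2G30660, 2.18 for AT4G17350, 1.90 for AT1G67750, 1.59 for AT4G03140, 1.16 for GSTU16 and 1.11 for EXPA4, where the 3 h response was the higher one. It was -1.44 for AT3G21670 (NPF6.4), -1.48 for TBL45 and -1.55 for AT5G45650.

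AT2G30660 is the only 1 of the 9 that was not called at 3 h (adjusted p = 0.05556, limma), though it passed with the replicate block (0.02972). It had 313 and 471.7 units after 3 h of IAA, against 30.93 and 132.1 in mock seedlings, and 154.2 and 116.5 units after 1 h of IAA, against 348.5 and 288.5 in mock seedlings. Its IAA arrays thus lay above mock at 3 h and below mock at 1 h. Its mock arrays also differed between the times and were lower at 3 h. On the arrays of the other hormones at 3 h its median was 267.6, above both 3 h mock arrays. IAA exceeded those hormones by 0.61 on the log2 scale, which did not pass (adjusted p = 0.453, limma). The difference between the times was 2.21 without mock replicate 1 at 3 h and 3.33 without mock replicate 2 at 3 h. AT1G67750 had 2953 and 2760 units after 3 h of IAA, against 1054 and 971.1 in mock seedlings, and 901.1 and 643.5 units after 1 h, against 1145 and 982.8. AT4G03140 had 2022 and 1404 units after 3 h of IAA, against 593.3 and 430.7 in mock seedlings, and 623.1 and 562.9 units after 1 h, against 547.1 and 600.9. GSTU16 had 788.1 and 889 units after 1 h of IAA, against 889.2 and 1097 in mock seedlings. TBL45 had 3141 and 3142 units after 1 h of IAA, against 2294 and 1782 in mock seedlings, so its IAA arrays were above mock at 1 h and below it at 3 h. The mock arrays of the 2 times belong to different sets, and time and set cannot be told apart.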

How the results depend on the processing

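None of the 284 calls was made in the other direction under any of the 17 alternatives. For most alternatives this was fixed in advance. IAA and mock arrays did not overlap for any of the 284, so leaving out 1 array or changing the pseudocount could not turn a sign. The block, trend, filter and added arrays do not alter the change itself. Of the largest named changes, 9 of 16 rises and 3 of 14 falls passed under all 17. The replicate block ended no call, and the median change of all tested probe sets stayed within -0.017 and 0.002 under the scalings. The 154 rises and 130 falls became 62 and 24 on the deposited scale without rescaling (62 and 23 of them among the original calls), 302 and 327 with all 72 arrays in the fit (152 and 123 among the original), 97 and 44 with only the IAA and mock arrays, and 311 and 343 with the replicate block. With only the arrays of mock, IAA, zeatin and GA3, a choice made after seeing the data, there were 124 rises and 86 falls, and 415 and 464 with the replicate block added. Leaving out 1 array gave 36 to 145 rises and 21 to 119 falls. The fit with all 72 arrays also holds lines other than wild type, so its spread was estimated partly from them.

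The 747 calls against the other hormones became 336 on the deposited scale, 1347 with all 72 arrays and 1293 with the replicate block, and 266 to 753 without 1 array. Only zeatin and GA3 as the other hormones gave 520, and only ABA, MJ, ACC and BL gave 886, both chosen after seeing the data.

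The 21 differences between 3 h and 1 h became 13 with a pseudocount of 2% of the median signal, 13 without a filter, 52 with all 72 arrays and 109 with the replicate block. They became 0 by limma on the deposited scale, without an intensity trend and with only the groups compared, where 314, 917 and 877 had an unadjusted p under 0.05. Leaving out 1 array gave 0 to 17, and the 3 arrays that gave 0 (both 1 h mock arrays and IAA replicate 2 at 1 h) left 726 to 821 at an unadjusted p under 0.05. The causes were not tested. Fewer arrays leave fewer degrees of freedom, and leaving out an IAA or mock array leaves 1 array in that group. Dim signals limit precision: AT3G60650 had 43.15 and 112.8 units in mock seedlings, near the pseudocount of 55. With all 72 arrays in the fit, LBD16, PUCHI, ARL, EXPB3, EXPB1, XTH21, CSLC5, AT5G64120, AT1G68570 and BCAT4 also passed. That fit includes lines other than wild type.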

Other observations

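Among the 124 called genes with a locus identifier, 5 pairs are neighbours on a chromosome, by their order in the RefSeq table. Both members moved the same way in 4. How often neighbours move the same way among all tested genes was not counted, so these counts are a description. XTH18 and XTH19 rose (log2 changes of 1.27 and 1.83), as did AT4G37290 and AT4G37295 (2.89 and 2.43). MSRB5 and MSRB6 fell (-0.84 and -1.43), as did AT4G30450 and AT4G30460 (-1.31 and -0.98). AT4G30460 is also next to AT4G30470, which rose by 0.89.

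Some gene families held a rise and a fall at once. Of 8 GSTU genes tested, GSTU16 rose and GSTU26 fell, with a family median of -0.26. Of 16 TBL genes tested, TBL36 rose and TBL45 fell, with a median of -0.26. The MSRB family held falls only: of 4 genes tested, 2 fell and 0 rose, with a median of -0.85. Over all tested probe sets 0.965% rose and 0.814% fell. These families were chosen after the values were seen, because they held called genes, so their counts are a description.

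The difference between replicate 1 and replicate 2, taken over all tested probe sets in each of the 8 groups at 3 h, fell into 2 blocks of groups. It correlated at 0.357 to 0.431 between any 2 of IAA, zeatin, GA3 and mock, at 0.379 to 0.473 between any 2 of ABA, MJ, ACC and BL, and at 0.051 to 0.251 between groups of different blocks. The IAA and mock arrays belong to the same block. The replicate term behind the blocked values was 1 for all 8 groups, so it does not follow these 2 blocks. IAA replicate 1 was above IAA replicate 2 in 68.8% of the 154 rises and 44.6% of the 130 falls, against 47.0% of all tested probe sets. Mock replicate 1 was above mock replicate 2 in 63.6% of the rises and 69.2% of the falls, against 48.7% of all tested probe sets.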
